A study of Saccharomyces cerevisiae with 24 samples.

Results

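The 94 genes described here were those whose plasmids lost ground in the vineyard yeast BC187 during growth in 0.7 M NaCl while holding their place in the laboratory yeast BY4743. They were found among 4871 rows of a barcode table, of which 3637 had a mean of 50 or more normalised reads at the start (Gen0) in both strains and so could be judged. A normalised read is a read per 1000000 of a library's total, where the total leaves out the 25 rows that exceeded 50000 reads in some library. A member had a log2 ratio of its mean after 10 generations (Gen10) over its mean at Gen0, with 1 added to each mean, of -1 or lower in BC187 and above -0.25 in BY4743. The members were thus chosen by these values, which are given for BC187 and BY4743 as a description without a test. The values in NCYC3290 and YPS128 were not used in the choice.

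The plasmids belong to the MoBY 2.0 collection for Saccharomyces cerevisiae. Every high-copy plasmid pairs 1 gene from S288C, flanked by its native sequence, with a DNA barcode that sequencing can count, and the whole collection was transformed into 4 yeast strains. The 8 groups of 3 biological replicates were Gen10 and Gen0 of BC187 (a vineyard isolate), NCYC3290 (West African), YPS128 (a North American oak isolate) and BY4743 (a laboratory diploid, his3Δ1, leu2Δ0 and ura3Δ0 on both chromosome sets, heterozygous for lys2Δ0 and met15Δ0). The cultures grew in rich medium at 30°C with 0.7 M NaCl and 200 mg/L G418, the drug that selects for the plasmid. According to the paper, Gen0 was sampled before this growth in NaCl and Gen10 after it. All cultures carried the same library. Replicates were cultures started from a frozen pool of transformants, and the labels do not say whether each had its own transformation.

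Extra copies of a gene usually raise the amount of its product. This can burden a cell through the cost of making the protein, through an excess of 1 subunit over its partners, or through a regulator that becomes too active. Sodium chloride adds osmotic stress, which yeast meets by making and keeping glycerol, and ionic stress, which it meets by pumping sodium out of the cell or into the vacuole. A barcode count measures a plasmid's share of the library in its own strain, and fewer carrier cells and fewer plasmids per cell cannot be told apart. The laboratory strain holds more copies of these plasmids per genome than the wild strains, so copy number and strain cannot be told apart in the comparison that chose the members.

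The 24 libraries held 4615027 to 30699608 reads. Outside the most abundant rows the Gen0 libraries held 8407149 to 23477556 reads, but the Gen10 libraries held only 501261 to 1868859 in NCYC3290 and 1679115 to 5010411 in YPS128. The median member was counted 966 to 1417.5 times in the Gen10 libraries of BC187 and 2387.5 to 3914 times in those of BY4743. It was counted 11 to 41.5 times in those of NCYC3290 and 52.5 to 532.5 times in those of YPS128. Replicate 2 of YPS128 Gen10 stood apart. It held the highest of the 3 values for 76 of the 94 members, against 48.5% of all eligible rows, and the members' normalised reads summed to 34218 there, against 8614 and 9212 in its fellow replicates. Much of the 34218 came from GPP2 (10092), YOR338W (7904) and KIN1 (4381). Reads carry no molecular identifiers, so a read is not an independent molecule and counts of a few reads are imprecise.

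In BC187 472 eligible rows (13.0%) had a log2 ratio of -1 or lower, and the members are 94 of them. A further 182 of the 472 were also at -1 or lower in BY4743, and 196 lay between -1 and -0.25 there. The choice in the opposite direction, -1 or lower in BY4743 and above -0.25 in BC187, found 9 rows. The members' log2 ratios ran from -2.91 to -1.02 in BC187 (median -1.28) and from -0.25 to 1.09 in BY4743 (median -0.08). At the BC187 threshold SSH4 (-1.03), TOM71 (-1.03) and GEP5 (-1.02) were just inside, and POP4 (-1.0, just above -1 before rounding), COQ5 (-1.0, likewise) and SKG3 (-0.99) just outside. At the BY4743 threshold AIM46 (-0.25), GLY1 (-0.24) and VSB1 (-0.24) were just inside, and EPT1 (-0.27), YCG1 (-0.26) and STB4 (-0.26) just outside. Genes on either side of these edges differed little, and 56 of the 94 genes were members in each of the 12 choices that each left out 1 library. Among those that left the list in 1 or more of these choices were PIL1, YML053C, SOL3, RPL40B, RPS30B and FYV12, whose values are given later.

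For 2 genes, HSL7 and IRC5, the member was 1 of 2 eligible barcode rows, and the other row showed little change in BC187. HSL7_1 had -1.60 in BC187 and 0.02 in BY4743, while HSL7_2 had -0.23 and -0.05. IRC5_1 had -1.10 in BC187 and -0.09 in BY4743, while IRC5_2 had -0.04 and -0.29. IRC5_2 had 98.6, 101 and 102 normalised reads at Gen10 in BC187, against 102, 112 and 94.8 at Gen0. The rows of a gene differed in the other strains too, with -0.87 for IRC5_1 and -3.50 for IRC5_2 in YPS128 and -1.85 for HSL7_1 and -4.97 for HSL7_2 in NCYC3290. HSL7, a regulator of the kinase Swe1, and IRC5, a putative helicase, were thus members by 1 barcode only, and the sources used here do not say how the rows of a gene differ.

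**Figure D1:**
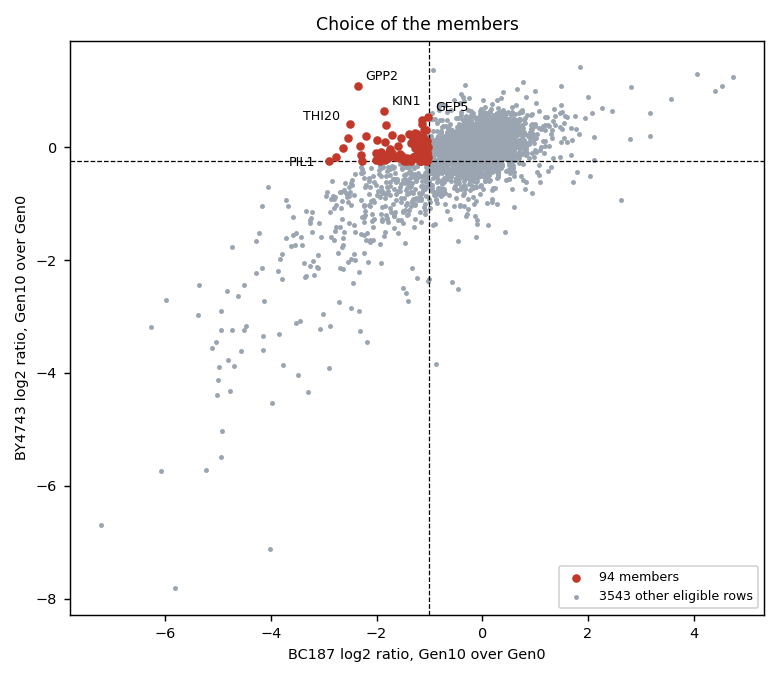
Each point is an eligible row of the barcode table, with the log2 ratio of Gen10 over Gen0 in BC187 on the x axis and in BY4743 on the y axis. Dashed lines mark the thresholds of -1 and -0.25, and the 94 members fill the upper left corner, with GPP2 at the top (BC187 -2.34, BY4743 1.09).

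The spread between replicates in BC187 was larger for the members than for other rows. Their median coefficient of variation there was 10.8% at Gen10 and 6.68% at Gen0, against 5.87% and 4.8% for the other eligible rows. All 3 Gen10 values lay below all 3 Gen0 values for 93 of the 94 members in BC187, a count the rule favours, where 38.5% of eligible rows did so. The exception was RSC8, a subunit of the RSC chromatin remodelling complex. RSC8 had 64.6, 74.7 and 37.3 normalised reads at Gen10 in BC187, against 71.2, 119 and 177 at Gen0. In BY4743 16 members had all Gen10 values below all Gen0 values (27.3% of eligible rows) and 13 had them all above (29.3% of eligible rows).

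The starting pools differed between the strains for part of the members. At Gen0 17 members (18.1%) differed by more than 2-fold between BC187 and BY4743, against 12.3% of the other eligible rows, and 11 of the 17 were lower in BC187. The part of the starting level in the log2 ratios was not tested.

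Most members also had low ratios in YPS128 and NCYC3290, the strains the study describes as sensitive to salt, and their medians were below those of all other plasmids together in both. In YPS128 the log2 ratio ran from -4.07 to 2.81 with a median of -1.87, against a median of -0.49 for the 3543 other eligible rows. It was -1 or lower for 70 of 94 members (74.5%), where 33.7% of eligible rows reached that value. In NCYC3290 the ratio ran from -5.73 to 2.20 with a median of -2.19, against -1.44 for the other eligible rows. Again 70 of 94 members were at -1 or lower, where 60.5% of eligible rows were. The 182 rows at -1 or lower in both BC187 and BY4743 were lower still, with a median of -3.23 in YPS128, where 91.2% were at -1 or lower, and of -2.63 in NCYC3290, where 81.3% were. Both strains had 57 of the members' low ratios in common, and 11 members lay above -1 in both. The shares of all eligible rows in these joint classes were not computed, so these counts are a description only. A ratio of 1 or higher was reached by 4 members in YPS128 (6.63% of eligible rows) and by 5 in NCYC3290 (8.30% of eligible rows).

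The replicates are given next. All 3 Gen10 values lay below all 3 Gen0 values for 74 members in YPS128 (78.7%), against 44.9% of eligible rows, and for 65 members in NCYC3290 (69.1%), against 58.5% of eligible rows. The members' median over the replicates was -2.16 ± 0.86 in YPS128 (SD, n = 3), where that of all eligible rows was -0.61 ± 0.17. It was -3.57 ± 0.40 in NCYC3290, where that of all eligible rows was -2.57 ± 0.93. These medians use the log2 ratio of each replicate, while the ratios given before use the mean of 3 Gen10 values. The highest replicate held a median of 69.7% of a member's summed Gen10 value in NCYC3290. In YPS128 that share was 57.8%, and in BC187 37.2%. The ratios in NCYC3290 and YPS128 thus rest largely on 1 library for many members. Within each library the members' median was below that of all eligible rows, from -1.19 against -0.43 in YPS128 replicate 2 to -2.78 against -0.75 in YPS128 replicate 3, and from -3.92 against -3.60 in NCYC3290 replicate 1 to -3.66 against -1.79 in NCYC3290 replicate 3.

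**Figure D2:**
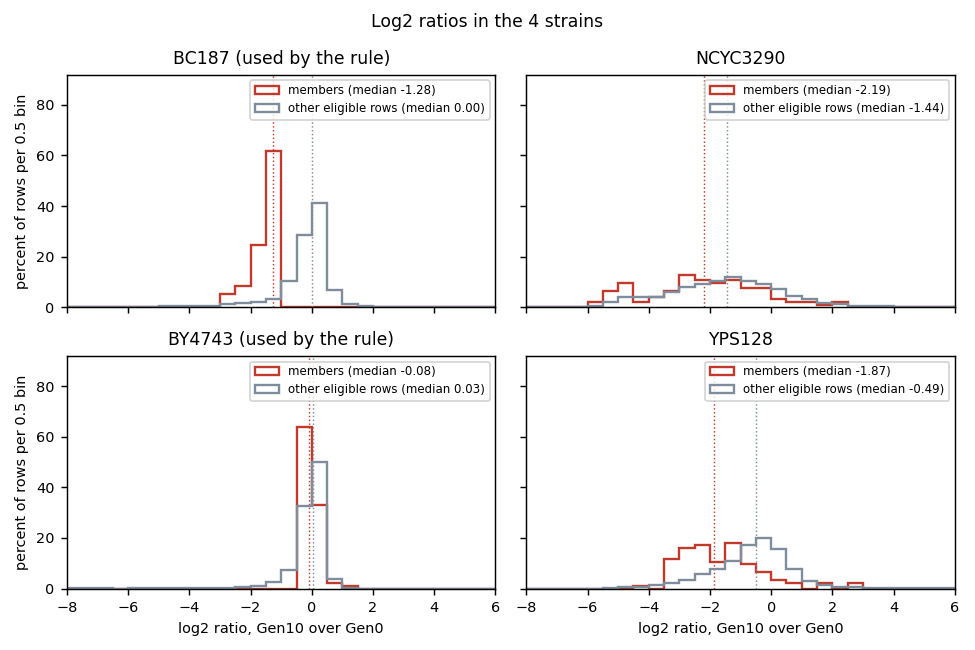
Histograms give the percent of rows per bin of 0.5 in the log2 ratio of Gen10 over Gen0, for the 94 members (red) and the 3543 other eligible rows (grey), with dotted lines at the medians and the axis ending at 6, beyond which a few other rows are not drawn. BC187 and BY4743 show what the rule chose. In YPS128 the members' median is -1.87 and that of the other rows -0.49, and in NCYC3290 they are -2.19 and -1.44.

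The change of each barcode was tested within each of these strains by edgeR's quasi-likelihood test over all rows, and a gene with a false discovery rate (FDR) under 0.05 was called deleterious if it was lower at Gen10 and beneficial if it was higher. In YPS128 17 of the 94 members were deleterious, where 8.47% of the 4157 rows tested were, and 0 were beneficial (4.11% of rows). At an unadjusted p under 0.05 there were 62 lower and 2 higher members, for which the share of all rows was not computed. Without YPS128 Gen10 replicate 2 there were 70 deleterious members (39.2% of rows), and without any 1 Gen0 library of YPS128 there were 1 to 2 (0.0481% to 0.361% of rows). In NCYC3290 29 members were deleterious, where 26.1% of 4171 rows were, so that the members' share (30.9%) was near the background, and 0 were beneficial (1.89% of rows). At an unadjusted p under 0.05 there were 44 lower and 2 higher members, and here too the share of all rows was not computed. Without 1 Gen0 library of NCYC3290 there were 17 to 18 deleterious members (13.3% to 13.7% of rows), and without Gen10 replicate 1 or 3 there were 45 and 51 (36.4% and 45.4% of rows). DESeq2 called 3 members beneficial in YPS128 (16.9% of rows) and 12 in NCYC3290 (22.1% of rows), and its size factors placed the members' median in NCYC3290 at 0.02. The members' fitted median minus that of all rows was -1.32 in YPS128 and -0.64 in NCYC3290, and with all reads as library size, TMM and DESeq2 it was also below 0 in both strains. The 2 strains had 7 deleterious members in common, 41.2% of the calls in YPS128 and 24.1% of those in NCYC3290. The share of all tested rows called deleterious in both strains was not computed, so this overlap is a description only. These were AFT1, ERG11, LSM1, MDV1, PUS7, RPL19B and YNL042W-B. Of the 17 calls in YPS128, that of AFT1 alone stood in all 6 fits that left out 1 library.

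**Figure D3:**
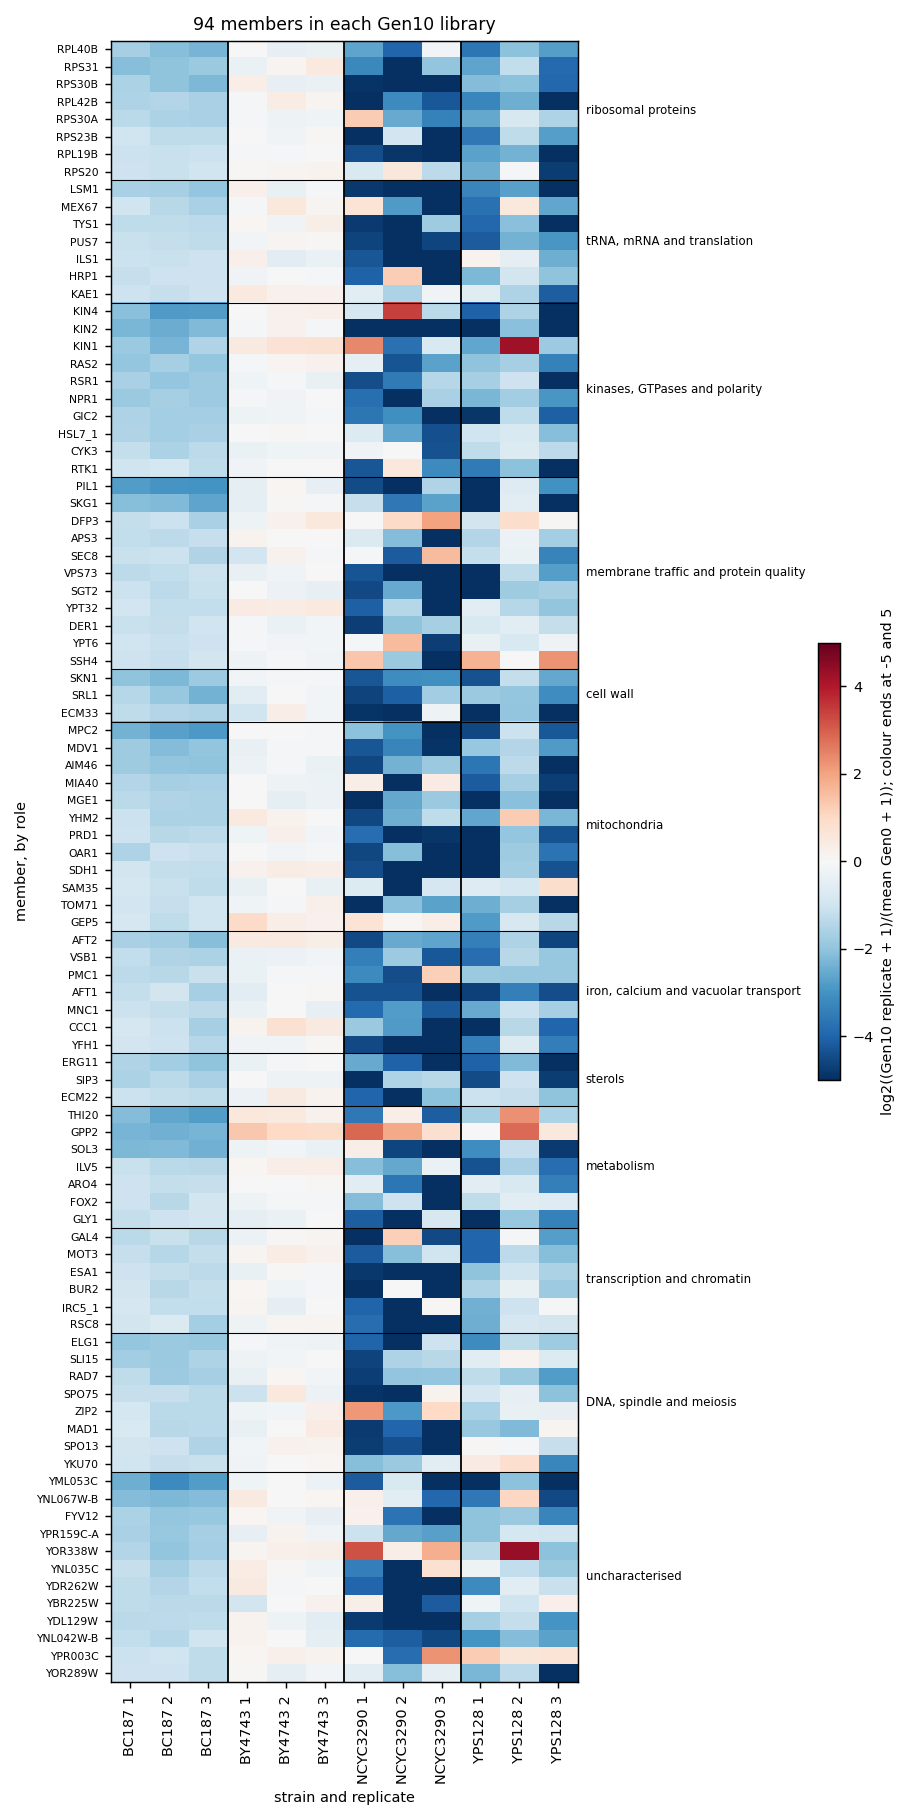
Rows are the 94 members, ordered by role and then by their BC187 ratio. Columns are the 3 Gen10 libraries of each strain, and colour gives log2 of the replicate plus 1 over the mean Gen0 plus 1, from -5 (blue) to 5 (red). BC187 is uniformly pale blue and BY4743 near white, while replicates of NCYC3290 and YPS128 differ widely, with YPS128 replicate 2 the highest for 76 members.

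The lowest ratio in BC187 belonged to PIL1, the core component of eisosomes, which are furrows of the plasma membrane. PIL1 had 20.2, 17.9 and 17.2 normalised reads at Gen10 in BC187, against 115, 145 and 175 at Gen0 (log2 ratio -2.91). In BY4743 it had 61.6, 93.9 and 65.6 at Gen10, against 88.6, 86.5 and 86.7 at Gen0 (-0.24). The BC187 groups were far apart and the BY4743 groups overlapped, with 2 of 3 Gen10 values below Gen0, so that PIL1 met the BY4743 threshold through replicate 2. In YPS128 PIL1 had 0.916, 41.3 and 7.15 at Gen10, against 69.7, 59.1 and 69.1 at Gen0 (-1.94), and in NCYC3290 it had 3.0, 0 and 30.5, against 77.5, 101 and 86.6 (-2.88). Every Gen10 value was below every Gen0 value in both strains, but neither change passed the test.

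The uncharacterised gene YML053C came next. It had 40.9, 24.1 and 31.7 normalised reads at Gen10 in BC187, against 230, 246 and 197 at Gen0 (-2.76), and 314, 361 and 297 at Gen10 in BY4743, against 360, 360 and 377 at Gen0 (-0.17). Its ratio was -3.35 in YPS128 and -2.16 in NCYC3290. In the reference genome YML053C lies beside SUR7, which encodes another eisosome protein and which had -1.34 in BC187 and -0.96 in BY4743. SKG1, a transmembrane protein with a role in the composition of the cell wall, had 91.4, 86.3 and 64.2 at Gen10 in BC187, against 374, 434 and 396 at Gen0 (-2.30), and its BY4743 ratio was -0.13. SKG1 had 3.21, 123 and 2.38 at Gen10 in YPS128, against 204, 179 and 170 at Gen0, with replicate 2 far above its fellows (-2.08).

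Genes for mitochondrial proteins were among the largest role groups, with 12 members. The groups by role were drawn up once the members were known. In this group 10 were at -1 or lower in YPS128 and 10 in NCYC3290 (33.7% and 60.5% of eligible rows), with medians of -2.53 and -2.75. The genes for mitochondrial ribosomal proteins gave 0 members of 55 eligible, with 0 at -1 or lower in BC187 and a median of 0.11 there. MPC2, a subunit of the carrier that brings pyruvate into mitochondria, had the lowest BC187 ratio of the group. It had 64.1, 49.3 and 44.1 normalised reads at Gen10 in BC187, against 319, 386 and 289 at Gen0 (-2.64), and 387, 390 and 354 in BY4743, against 375, 371 and 397 (-0.01). The BC187 groups were far apart, while the BY4743 groups interleaved. In NCYC3290 MPC2 had 92.4, 47.9 and 10.2 at Gen10, against 374, 431 and 363 at Gen0. It fell by 2.96 on the log2 scale there (SE 0.92, FDR 0.048), a call lost in 4 of the 6 fits that left out 1 library.

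Other mitochondrial members take part in import, division, iron handling and respiration. MDV1, which helps to divide mitochondria, had 95.5, 72.9 and 83.4 at Gen10 in BC187, against 336, 330 and 319 at Gen0 (-1.95). It fell by 1.97 in YPS128 (SE 0.39, FDR 0.022) and fell by 4.16 in NCYC3290 (SE 0.82, FDR 0.0090). These calls were lost in 4 and 3 of 6 fits without 1 library. SDH1, the flavoprotein of succinate dehydrogenase, fell by 5.37 in NCYC3290 (SE 1.19, FDR 0.014), where it had 15, 0 and 8.56 normalised reads at Gen10, against 363, 333 and 333 at Gen0. The SDH1 call was lost in 3 of 6 such fits. The members of the list for respiration, carriers and import were SAM35, TOM71, MDV1, SDH1 and YHM2, and their BC187 ratios were -1.07, -1.03, -1.95, -1.11 and -1.38. They were 5 of 101 eligible genes of the list, which had a median ratio of 0.06 in BC187 and of -0.56 in YPS128. The list as a whole was therefore near the median of all eligible rows (-0.01 in BC187 and -0.52 in YPS128). In it 3 of 112 genes tested were deleterious and 5 beneficial in YPS128, and 27 deleterious and 1 beneficial in NCYC3290. GEP5 stood out within the group. It had 64.4, 47.0 and 57.0 in BC187 at Gen10, against 112, 112 and 121 at Gen0, but 220, 148 and 175 in NCYC3290, against 133, 144 and 134.

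Kinases, GTPases and polarity genes made up 10 members. The related kinases KIN1 and KIN2, which act in polarised exocytosis, were both members, as was KIN4, which keeps cells from leaving mitosis when the spindle is misplaced. KIN2 had 21.2, 18.1 and 22.3 normalised reads at Gen10 in BC187, against 105, 112 and 103 at Gen0 (-2.32), and 136, 162 and 129 in BY4743, against 139, 141 and 141 (0.02). In NCYC3290 KIN2 had 3.0, 1.99 and 2.14 at Gen10, against 129, 125 and 128 at Gen0. It fell by 5.71 on the log2 scale (SE 0.78, FDR 0.0063), a call that stood in all 6 fits without 1 library and rested on 4, 1 and 4 reads at Gen10. In YPS128 it had 0.916, 21.2 and 1.19, against 107, 86.0 and 85.2 (-3.42), below Gen0 in every replicate and not past the test.

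KIN1 and KIN4 behaved differently from KIN2 in 1 or more libraries. KIN1 had 44.2, 31.2 and 55.9 at Gen10 in BC187, against 156, 166 and 161 at Gen0 (-1.85), and 150, 179 and 184 in BY4743, against 106, 111 and 110 (0.65). In YPS128 it had 37.5, 4381 and 64.3 at Gen10, against 330, 184 and 175 at Gen0, and in NCYC3290 491, 5.98 and 54.6, against 93.3, 99.6 and 84.9. In each of these strains 1 replicate was far above Gen0 and the others below it (ratios of 2.70 and 0.98). KIN4 had 39.4, 23.3 and 23.8 at Gen10 in BC187, against 161, 189 and 167 at Gen0 (-2.54). In NCYC3290 it had 122, 2370 and 87.2, against 216, 221 and 228 at Gen0, so that replicate 2 alone was high.

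The Ras-type GTPases RAS2, an activator of adenylate cyclase, and RSR1, which sets the bud site, were also members. RAS2 was the most abundant of all members at the start in BC187, with 385, 459 and 380 at Gen10, against 1472, 1494 and 1429 at Gen0 (-1.84). In BY4743 it had 783, 896 and 955, against 827, 801 and 830 (0.10). RAS2 fell by 2.18 in YPS128 (SE 0.44, FDR 0.023), a call lost in 4 of 6 fits without 1 library. The members of the list for actin and polarity were RSR1 (-1.79 in BC187), GIC2 (-1.65), an effector of the GTPase Cdc42, and CYK3 (-1.36), which acts at the cytokinetic ring. This list had 20 of 66 eligible genes at -1 or lower in BC187 and 11 in BY4743. GIC2 fell by 3.90 in NCYC3290 (SE 0.99, FDR 0.024), a call lost in 3 of 6 such fits. Of the list's genes 18 of 76 tested were deleterious and 3 beneficial in YPS128, and 27 of 78 were deleterious and 2 beneficial in NCYC3290. NPR1 (-1.77 in BC187), a kinase that stabilises amino acid transporters, and RTK1 (-1.05), a putative kinase, were both called in YPS128. NPR1 fell by 2.25 (SE 0.47) and RTK1 fell by 3.09 (SE 0.75). The NPR1 call was lost in 3 of 6 such fits.

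Ribosomal protein genes supplied 8 members, RPL40B, RPS31, RPS30B, RPL42B, RPS30A, RPS23B, RPL19B and RPS20. RPL40B and RPS31 encode ribosomal proteins made as fusions with ubiquitin. Of the 102 eligible ribosomal protein genes, 30 were at -1 or lower in BC187 and 12 in BY4743, and their medians were -0.52 in BC187, -0.14 in BY4743, -2.04 in YPS128 and -2.35 in NCYC3290. All 8 members were at -1 or lower in YPS128 and 6 in NCYC3290 (33.7% and 60.5% of eligible rows). RPL40B had 109, 80.2 and 69.2 normalised reads at Gen10 in BC187, against 347, 353 and 350 at Gen0 (-2.01). It fell by 2.69 in YPS128 (SE 0.49, FDR 0.018), where it had 26.1, 78.2 and 48.8 at Gen10, against 448, 272 and 272 at Gen0. The RPL40B call was lost in 3 of 6 fits without 1 library. RPS31 had 26.0, 28.5 and 31.4 at Gen10 in BC187, against 73.6, 107 and 173 at Gen0 (-2.0), and 189, 263 and 332 in BY4743, against 240, 227 and 246 (0.14).

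RPL42B, RPS23B and RPL19B encode proteins of the large, the small and the large ribosomal subunit. RPL42B had a BC187 ratio of -1.54 and fell by 4.11 in NCYC3290 (SE 0.87, FDR 0.011). That call was lost in 3 of 6 fits without 1 library. RPL19B had 76.6, 76.1 and 78.2 at Gen10 in BC187, against 171, 161 and 160 at Gen0 (-1.08), and 95.8, 96.0 and 102 in BY4743, against 101, 94.8 and 104 (-0.03). RPL19B fell by 2.99 in YPS128 (SE 0.68, FDR 0.031) and fell by 5.42 in NCYC3290 (SE 0.80, FDR 0.0063), where its Gen10 libraries held 4, 1 and 2 reads. RPS23B, at -1.16 in BC187, showed the largest gap between starting pools among these genes, with 48.3, 58.2 and 55.8 normalised reads at Gen0 in BC187 and 367, 365 and 391 in BY4743. Of the 117 ribosomal protein genes tested, 34 were deleterious in YPS128 and 41 in NCYC3290, and 0 were beneficial in either.

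RPS30A and RPS30B encode the same small-subunit protein, and both were members. RPS30B had 23.0, 17.1 and 14.2 normalised reads at Gen10 in BC187, against 78.1, 70.8 and 65.4 at Gen0 (-1.92), and 185, 110 and 116 in BY4743, against 142, 145 and 152 (-0.09). RPS30A had 71.3, 59.8 and 58.2 at Gen10 in BC187, against 182, 195 and 173 at Gen0 (-1.52), and 553, 490 and 514 in BY4743, against 590, 599 and 588 (-0.19). The pair was alike in BC187 and differed in NCYC3290. There RPS30B had 3.0, 0 and 1.07 at Gen10, against 129, 131 and 97.5 at Gen0. It fell by 6.26 (SE 1.04, FDR 0.0065), a call that stood in all 6 fits without 1 library, but its Gen10 libraries held 4, 0 and 2 reads, too few for a precise fold. RPS30A had 1271, 91.8 and 49.2 there, against 534, 523 and 520 at Gen0, with replicate 1 above every Gen0 value. The difference between the copies was not tested.

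The plasmids carry native flanking sequence, so the promoters of the RPS30 pair are shown for comparison, from 250 bases before to 50 bases after the start of each gene's annotated coding region. They were read from the RefSeq genome of S288C (assembly R64) on the strand of the gene, RPS30A at chrXII:713109-713408 and RPS30B at chrXV:678744-679043, both on the minus strand. Capitals mark ACATCCGTACATAT, the longest run of letters that both promoters share before the start codon (14 bases). It resembles the sites bound by Rap1, a general regulator of ribosomal protein genes.
RPS30A: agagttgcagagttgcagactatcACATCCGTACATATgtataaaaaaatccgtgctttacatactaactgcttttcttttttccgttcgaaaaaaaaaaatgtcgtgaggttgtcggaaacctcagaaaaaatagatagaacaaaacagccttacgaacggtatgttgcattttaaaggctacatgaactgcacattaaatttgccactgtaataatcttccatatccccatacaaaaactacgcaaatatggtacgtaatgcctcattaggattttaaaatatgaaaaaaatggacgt
RPS30B: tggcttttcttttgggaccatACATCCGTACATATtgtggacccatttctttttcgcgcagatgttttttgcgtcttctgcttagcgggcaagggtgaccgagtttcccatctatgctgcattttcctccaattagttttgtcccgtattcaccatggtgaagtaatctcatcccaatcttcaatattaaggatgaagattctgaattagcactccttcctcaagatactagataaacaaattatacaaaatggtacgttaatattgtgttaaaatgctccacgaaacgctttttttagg
The run begins 226 bases before the start codon in RPS30A and 229 bases before it in RPS30B, where it lies at chrXV:679009-679022, inside the coding region of the neighbouring gene FYV12. Searched on both strands, these letters occur in 2 of 6001 promoters of protein-coding genes (0.033%), which are those of the pair itself. A form of the Rap1 site, ACCCNNACA, occurs in 12 of 132 promoters of ribosomal protein genes and in 1 of the 8 ribosomal protein members, RPL40B, against 2.83% of all promoters. Only the window from 250 bases before to 50 bases after the start was searched. A site further upstream or in another form is therefore not counted. A match is a description of the letters and not of binding.

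Genes of iron, calcium and vacuolar transport were 7 members, and all 7 were at -1 or lower in YPS128 and 6 in NCYC3290 (33.7% and 60.5% of eligible rows). This group, too, was put together from the members. AFT1 and AFT2 are related transcription factors that switch on iron uptake when iron is scarce. AFT1 had 148, 177 and 108 normalised reads at Gen10 in BC187, against 377, 329 and 311 at Gen0 (-1.22), and 194, 288 and 294 in BY4743, against 285, 285 and 279 (-0.13). In YPS128 AFT1 had 11, 27.3 and 13.1 at Gen10, against 299, 329 and 284 at Gen0. It fell by 4.13 (SE 0.50, FDR 0.0042), which was the largest of any member in YPS128 and stood in all 6 fits without 1 library. In NCYC3290 it had 12, 12 and 4.28, against 260, 258 and 275. It fell by 4.84 (SE 0.82, FDR 0.0066), and this call also stood in all 6 fits. AFT1 was thus below Gen0 in every replicate of the 3 wild strains. AFT2 had 117, 109 and 82.5 at Gen10 in BC187, against 408, 365 and 329 at Gen0 (-1.83), but 364, 357 and 327 in BY4743, against 263, 263 and 266 (0.40), higher in every replicate. AFT2 fell by 3.04 in NCYC3290 (SE 0.81, FDR 0.029) and had a ratio of -2.66 in YPS128. Its call in NCYC3290 was lost in 3 of 6 fits without 1 library.

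Other members handle iron or calcium as well. CCC1 moves iron and manganese into the vacuole, and YFH1 encodes frataxin, the iron chaperone of the mitochondrial matrix. CCC1 had a ratio of -1.15 in BC187, 0.48 in BY4743, -2.68 in YPS128 and -2.79 in NCYC3290. YFH1 had -1.13 in BC187 and -0.10 in BY4743, and fell by 5.21 in NCYC3290 (SE 0.78, FDR 0.0063), where it had 18.0, 9.97 and 7.49 normalised reads at Gen10, against 445, 446 and 425 at Gen0. PMC1, the calcium pump of the vacuole, had 121, 114 and 137 at Gen10 in BC187, against 302, 307 and 290 at Gen0 (-1.26). It was the steadiest of the members called in YPS128, with 110, 106 and 107 at Gen10, against 364, 435 and 397 at Gen0, and fell by 1.89 (SE 0.25, FDR 0.0060). The PMC1 call was lost in 2 of 6 fits without 1 library. In NCYC3290 PMC1 had 15.8, 5.98 and 350, against 145, 154 and 155, so that replicate 3 lay above Gen0 and the others far below.

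The sterol members ERG11, SIP3 and ECM22 were also at -1 or lower in YPS128 and NCYC3290 (33.7% and 60.5% of eligible rows). The list for sterol and lipid metabolism held 2 of them among its 75 eligible genes, and as a whole it had medians of -0.02 in BC187 and -0.51 in YPS128, near those of all eligible rows. Of its genes 10 of 91 tested were deleterious and 6 beneficial in YPS128, and 36 of 92 were deleterious and 5 beneficial in NCYC3290. ERG11 encodes the lanosterol demethylase of ergosterol synthesis, the target of azole drugs. It had 132, 110 and 90.6 normalised reads at Gen10 in BC187, against 361, 380 and 376 at Gen0 (-1.74), and 273, 330 and 336 in BY4743, against 351, 338 and 336 (-0.13). ERG11 fell by 3.33 in YPS128 (SE 0.81, FDR 0.036), where it had 23.8, 87.6 and 6.55 at Gen10, against 347, 439 and 425 at Gen0, and it fell by 3.62 in NCYC3290 (SE 1.06, FDR 0.039). Both calls were lost in 4 of 6 fits without 1 library. ECM22, a regulator of sterol synthesis genes, had -1.17 in BC187 and fell by 3.22 in NCYC3290 (SE 0.98, FDR 0.044). Its call, too, was lost in 4 of 6 such fits.

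Among genes of tRNA, mRNA and translation, LSM1 was lowest in BC187. It encodes a subunit of the ring that directs mRNA decay. LSM1 had 63.1, 61.6 and 50.5 normalised reads at Gen10 in BC187, against 206, 199 and 189 at Gen0 (-1.74), and 210, 135 and 165 in BY4743, against 181, 173 and 169 (-0.03). It fell by 3.44 in YPS128 (SE 0.72, FDR 0.025) and fell by 5.66 in NCYC3290 (SE 0.83, FDR 0.0063). The YPS128 call was lost in 4 of 6 fits without 1 library, and the NCYC3290 call in 0. PUS7, a pseudouridine synthase, had -1.19 in BC187 and fell by 2.98 in YPS128 (SE 0.48) and fell by 4.97 in NCYC3290 (SE 0.76). Its call was lost in 3 of 6 such fits in YPS128 and in 0 in NCYC3290. The isoleucyl-tRNA synthetase gene ILS1 and the tyrosyl-tRNA synthetase gene TYS1 had BC187 ratios of -1.09 and -1.29. They were 2 of 15 eligible synthetase genes, of which 10 were at -1 or lower in BC187 and 2 in BY4743. Of these genes 3 were deleterious and 1 beneficial in YPS128, and 9 deleterious and 0 beneficial in NCYC3290.

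The members of the list for the secretory pathway were APS3 (-1.23 in BC187), of the clathrin adaptor AP-3, SEC8 (-1.21), of the exocyst, and the Rab GTPases YPT32 (-1.14) and YPT6 (-1.05). They were 4 of 113 eligible genes of the list, of which 26 were at -1 or lower in BC187 and 16 in BY4743. YPT6 had 403, 379 and 393 normalised reads at Gen10 in BC187, against 848, 791 and 803 at Gen0, but 557, 1789 and 21.9 in NCYC3290, against 617, 570 and 614, where replicates went to both sides of Gen0. None of the 4 members passed the test in YPS128 or NCYC3290 by edgeR, where 11 of 133 and 31 of 134 genes of the list were deleterious and 4 and 6 beneficial. Of the 24 lists, only these, those for ribosomal proteins, for actin and polarity and for respiration held 3 or more members, and 53 members were in none.

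Metabolic genes among the members included GPP2, which had the highest BY4743 ratio of all. GPP2 encodes a glycerol-phosphate phosphatase, the last step of glycerol synthesis, and its gene is known to be induced by osmotic stress. It had 137, 132 and 139 normalised reads at Gen10 in BC187, against 625, 759 and 704 at Gen0 (-2.34). In BY4743 it had 1520, 1203 and 1126, against 608, 603 and 594 (1.09). In NCYC3290 it had 4817, 2490 and 1158, against 626, 690 and 680 (2.08), and in YPS128 1393, 10092 and 2036, against 1843, 1222 and 1220 (1.66). GPP2 was thus lower in all 3 BC187 replicates and higher in all 3 replicates of BY4743 and NCYC3290, while in YPS128 replicate 1 lay within the Gen0 range. The changes in NCYC3290 and YPS128 did not pass the test by edgeR. Its duplicate GPP1 had 0.26 in BC187, 0.36 in BY4743, -1.80 in YPS128 and -2.81 in NCYC3290.

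THI20, an enzyme of thiamine synthesis and salvage, and SOL3, of the pentose phosphate pathway, were also among the 10 lowest in BC187. THI20 had 16.3, 11.9 and 10.4 at Gen10 in BC187, against 59.4, 83.5 and 89.5 at Gen0 (-2.50), and 154, 150 and 124 in BY4743, against 107, 111 and 102 (0.41). In YPS128 THI20 had 61.4, 964 and 66.1, against 241, 175 and 176, so that replicate 2 alone was above Gen0. SOL3 had 27.9, 28.5 and 25.1 at Gen10 in BC187, against 144, 135 and 129 at Gen0 (-2.28), and its BY4743 ratio was -0.24. The metabolic group had 4 of 7 members at -1 or lower in YPS128 and 6 in NCYC3290 (33.7% and 60.5% of eligible rows). The 10th gene of the lowest 10 in BC187, the uncharacterised YNL067W-B, had 53.4, 51.2 and 54.0 at Gen10, against 255, 236 and 244 at Gen0 (-2.19).

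**Figure D4:**
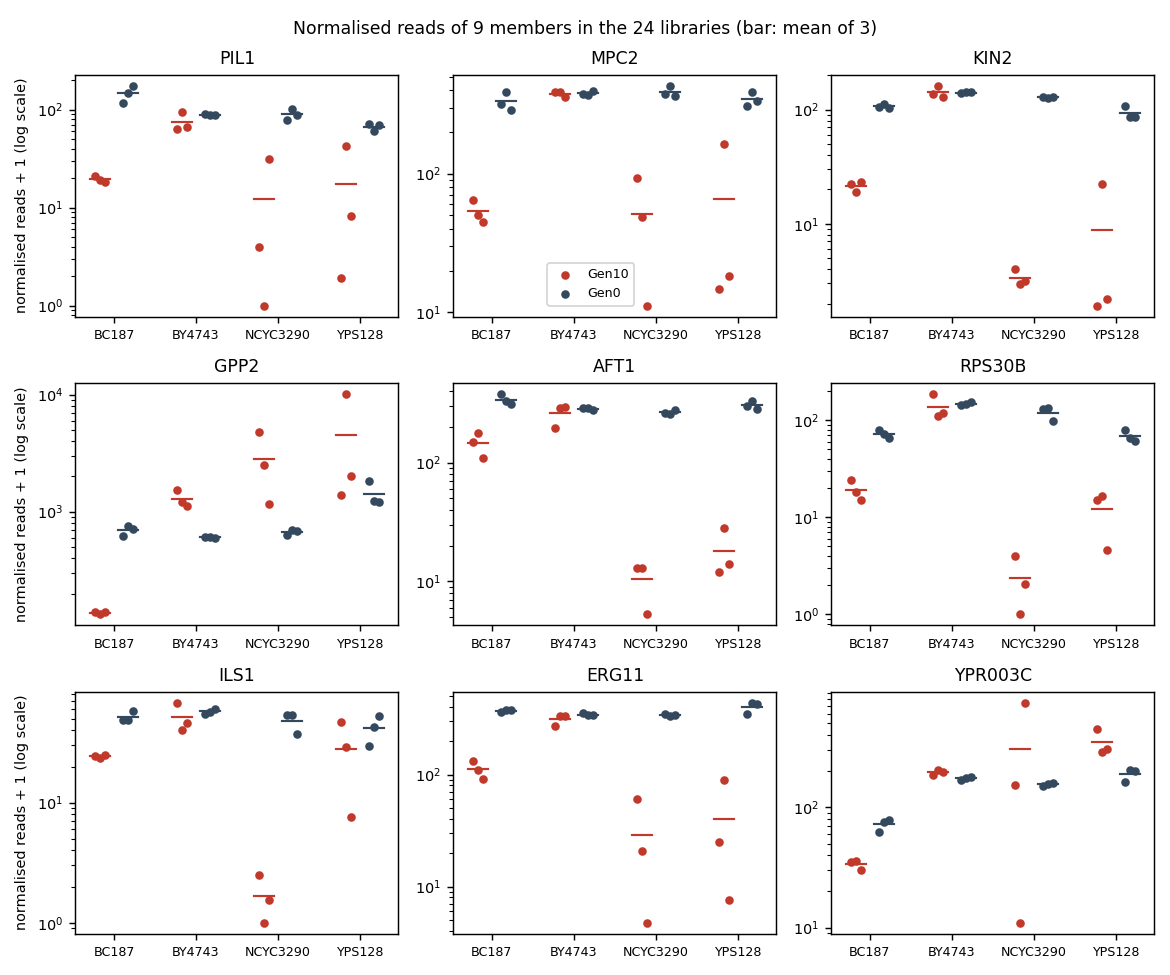
Normalised reads plus 1, on a log axis, of 9 members in the 24 libraries, with Gen10 in red left of Gen0 in dark blue and a bar at each mean of 3. The 3 Gen10 points of BC187 lie close together and below Gen0 in every panel. GPP2 is above Gen0 in BY4743 and NCYC3290, and AFT1 is below Gen0 in all 3 wild strains, with the smallest drop in BC187 (-1.22).

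Some members did not have low ratios in NCYC3290 and YPS128. The ratio was above 0 in both for 5 members, GPP2, KIN1, YOR338W, DFP3 and YPR003C. The share of all eligible rows above 0 in both was not computed. YOR338W, an uncharacterised gene, had 96.5, 67.4 and 82.4 normalised reads at Gen10 in BC187, against 242, 272 and 295 at Gen0 (-1.70). In NCYC3290 it had 2119, 283 and 813, against 232, 229 and 235 (2.20), and in YPS128 152, 7904 and 91.7, against 316, 404 and 442 (2.81). All replicates were above Gen0 in NCYC3290, and replicate 2 alone was in YPS128. YPR003C, a putative sulfate permease, had 33.9, 34.9 and 28.9 in BC187, against 61.5, 75.2 and 78.1 (-1.11), and 452, 288 and 305 in YPS128, against 161, 204 and 202 (0.88). It was the 1 member with every Gen10 value above every Gen0 value in YPS128, where 10.4% of eligible rows were so. In NCYC3290 there were 3 such members, GPP2, YOR338W and GEP5 (3.79% of eligible rows). SSH4, which directs the ubiquitin ligase Rsp5 to membrane proteins, had 980, 288 and 1364 in YPS128, against 226, 341 and 304 (1.59), with replicate 2 inside the Gen0 range.

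Changes in YPS128 and NCYC3290 were compared in a joint fit of their 12 libraries. Of the 94 members, 6 had a more positive change in YPS128 than in NCYC3290 (11.0% of 4184 rows) and 0 a more negative one (1.12% of rows). At an unadjusted p under 0.05 these counts were 13 and 2, and DESeq2 gave 3 and 7, all given without the share of all rows. The 6 were ILS1, SPO13, ESA1, MAD1, YDL129W and RSC8. ILS1 had 46.2, 28.3 and 6.55 normalised reads at Gen10 in YPS128, against 28.5, 41.3 and 51.7 at Gen0, and 1.5, 0 and 0.535 in NCYC3290, against 52.2, 52.6 and 36.5. Its Gen10 libraries of NCYC3290 held 2, 0 and 1 reads, too few for a precise fold. The difference was 5.29 on the log2 scale (SE 1.36, FDR 0.024). SPO13, a meiotic regulator, had 181, 165 and 78.0 in YPS128, against 138, 176 and 206, and 4.51, 5.98 and 1.07 in NCYC3290, against 156, 163 and 124. Its difference was 5.09 (SE 1.02, FDR 0.0074) and alone among the 6 passed in all 12 fits without 1 library.

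ESA1, the catalytic subunit of the NuA4 histone acetyltransferase, had 38.5, 79.6 and 52.4 in YPS128, against 189, 135 and 156, and 6.76, 0 and 2.68 in NCYC3290, against 227, 225 and 207 (difference 4.48, SE 1.10, FDR 0.020). MAD1, of the spindle assembly checkpoint, differed by 4.26 (SE 1.17, FDR 0.033), and the uncharacterised YDL129W by 3.88 (SE 0.94, FDR 0.019). RSC8 differed by 3.87 (SE 1.17, FDR 0.048). All 6 were deleterious in NCYC3290 and none in YPS128 by edgeR. Under TMM scaling, which places the members' median in NCYC3290 at -0.74, 0 of the 6 differences passed, and with a replicate block 0 did. The fitted changes in NCYC3290 were -5.99 for ESA1 (SE 1.13), -5.87 for ILS1 (SE 0.87) and -5.67 for YDL129W (SE 0.86), from 0 to 9 reads in each Gen10 library. MNC1, a putative membrane protein, had 3 reads in each Gen10 library of NCYC3290 and fell there by 4.02 (SE 0.74, FDR 0.0075).

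Partners from the whole genome duplication were compared next. Of the 94 members 24 had an annotated partner, and 17 had one that was eligible, in 15 pairs. In the pairs of RPS30A with RPS30B and of AFT1 with AFT2 both genes were members. In the remaining 13 pairs the partner was outside the members, and the member had the lower ratio in 12 of 13 pairs in BC187, in 10 in YPS128, in 8 in NCYC3290 and in 3 in BY4743. The counts in BC187 and BY4743 follow largely from the choice of the members, which are low in BC187 and not low in BY4743. The exception in BC187 was RPL40B (-2.01), whose partner RPL40A had -2.96 there but also -0.87 in BY4743. RPL42A had -0.996 in BC187, just above the threshold, against -1.54 for RPL42B. RAS1 had -0.36 in BC187 and FRK1, the partner of KIN4, had -0.29. UPC2, the partner of ECM22, had 0.45 in BC187, 0.13 in YPS128 and -0.80 in NCYC3290, against -1.17, -1.36 and -3.17 for ECM22. Reads are counted by barcode and not by gene sequence, so near-identical copies do not share them.

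**Figure D5:**
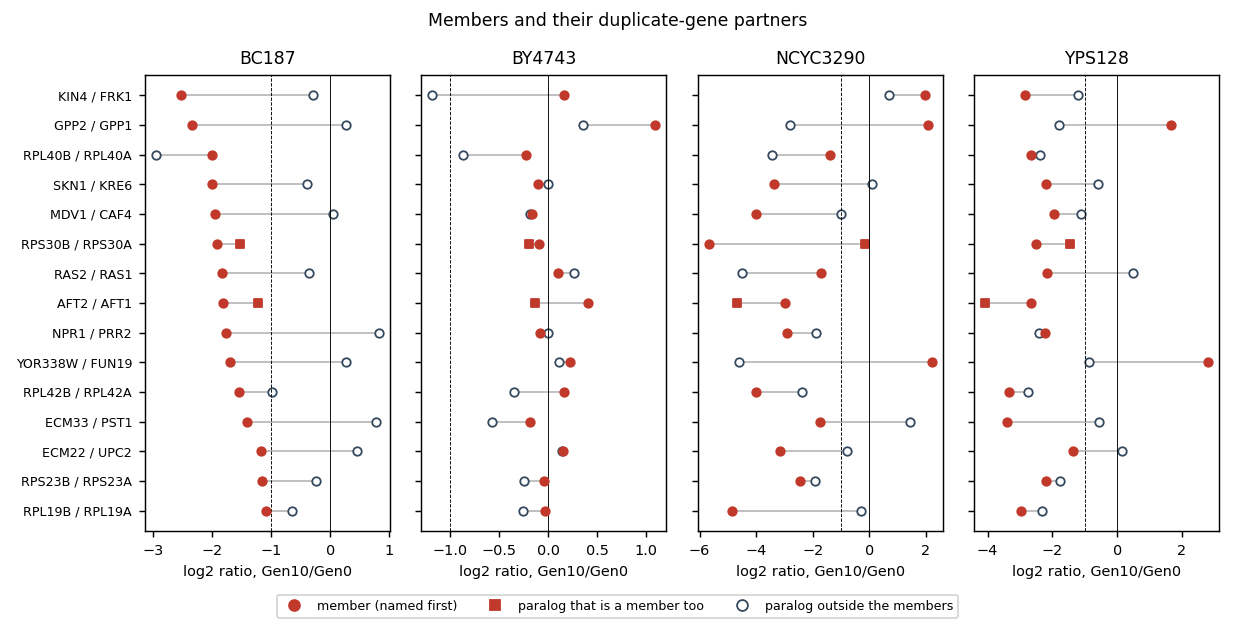
Log2 ratios of Gen10 over Gen0 for 15 pairs of duplicate genes in the 4 strains, each strain on its own x axis. The member named first is a filled circle, a partner outside the members is an open circle and a partner that is also a member is a filled square. Lines mark 0 (solid) and -1 (dashed). The order in BC187 and BY4743 follows largely from the choice of the members, while the member lies left of an open circle in 10 of 13 pairs in YPS128 and in 8 in NCYC3290.

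Some members were neighbours on the chromosome. Of the 94, 10 lay directly beside another member in the reference genome, in 5 pairs (10.6%), where 3.45% of other eligible rows lay beside a member. An eligible neighbour at -1 or lower in BC187, member or not, was found for 26 members (27.7%), against 15.1% of eligible rows above -1 in BC187. The inserts hold native flanking sequence, and their ends are not given in the sources used here, so what the plasmids of neighbours share was not tested. MPC2 and SOL3 lie on chromosome VIII, 262 bases apart and on the same strand, and had -2.64 and -2.28 in BC187 and -2.39 and -2.32 in YPS128. MGE1, a mitochondrial cochaperone, and KIN4 lie 586 bases apart on chromosome XV, and had -1.48 and -2.54 in BC187 but -2.65 and 1.95 in NCYC3290.

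The other 3 pairs are divergent, with a shared upstream stretch between the start codons, namely RPS30B with FYV12, PUS7 with ESA1, and RSC8 with the barcode row IRC5_1.
The stretches are shown since each is upstream sequence of both members of its pair. They are given on the plus strand of R64, at chrXV:678791-678874, chrXV:792239-792533 and chrVI:229184-229382, with capitals at the start codon of each gene (CAT is the start codon of the left gene read on the opposite strand).
RPS30B and FYV12: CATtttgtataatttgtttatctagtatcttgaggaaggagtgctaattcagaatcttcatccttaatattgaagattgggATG
PUS7 and ESA1: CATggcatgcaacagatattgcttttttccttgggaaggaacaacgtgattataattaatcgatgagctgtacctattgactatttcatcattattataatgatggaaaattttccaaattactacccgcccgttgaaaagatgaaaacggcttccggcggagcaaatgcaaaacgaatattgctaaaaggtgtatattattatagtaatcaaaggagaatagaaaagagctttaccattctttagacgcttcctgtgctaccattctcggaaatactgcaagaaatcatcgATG
RSC8 and IRC5: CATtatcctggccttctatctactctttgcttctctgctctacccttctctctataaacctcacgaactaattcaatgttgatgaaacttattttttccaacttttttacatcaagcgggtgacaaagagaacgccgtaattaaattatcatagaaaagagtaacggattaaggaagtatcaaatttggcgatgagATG
In the first pair 78 bases separate the genes, so the coding region of the uncharacterised FYV12 runs into the RPS30B promoter window printed earlier. FYV12 had 85.7, 65.6 and 68.7 normalised reads at Gen10 in BC187, against 255, 261 and 253 at Gen0 (-1.79), close to the -1.92 of RPS30B. In YPS128 these genes had -2.26 and -2.51, and FYV12 fell there by 2.27 (SE 0.50, FDR 0.028). The FYV12 call was lost in 4 of 6 fits without 1 library. In NCYC3290 FYV12 had 316, 19.9 and 2.68, against 262, 279 and 277 (-1.26), with replicate 1 above Gen0, whereas RPS30B was near 0 in every replicate. PUS7 and ESA1, 289 bases apart, had -1.19 and -1.16 in BC187, and RSC8 and IRC5_1, 193 bases apart, had -1.04 and -1.10, against -0.04 for IRC5_2.

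Other features of the genes were compared as shares, with no test. Their median length in the reference annotation was 1177.5 bases, against 1122 for the other eligible rows, and 8 of 94 (8.51%) had an intron, against 5.05%. Genes of unknown function were 14 of 94 (14.9%), against 11.7%. The 12 members in the uncharacterised role group had medians of -1.34 in BC187, -0.09 in BY4743, -1.22 in YPS128 and -1.24 in NCYC3290. Of these 12 members 7 were at -1 or lower in YPS128 (33.7% of eligible rows). Among these YNL042W-B was below Gen0 in every replicate of the wild strains. It fell by 2.59 in YPS128 (SE 0.44, FDR 0.014) and fell by 4.37 in NCYC3290 (SE 0.73, FDR 0.0066). Its YPS128 call was lost in 3 of 6 fits without 1 library, and its NCYC3290 call in 0. Of the 8 genes of DNA, spindle and meiosis, 7 were at -1 or lower in NCYC3290 (60.5% of eligible rows) and 2 in YPS128 (33.7% of eligible rows), and the difference between strains was not tested for the group. The 3 cell wall genes SKN1, SRL1 and ECM33, also grouped from the members, were at -1 or lower in both (60.5% and 33.7% of eligible rows). The wider list for glycosylation and the cell wall held 1 member, SKN1, among 71 eligible genes. Its medians were 0.05 in BC187, -0.31 in YPS128 and -1.71 in NCYC3290, against -0.01, -0.52 and -1.46 for all eligible rows.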

How the data were processed

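The authors isolated plasmids, amplified the barcodes by PCR and sequenced them as single-end reads. Values as deposited by the authors are whole-number counts of reads for each barcode, without normalisation. The tool that assigned reads to barcodes is not given in the sources used here. Columns were matched to samples by title, and 0 were left over. Gene names and positions came from RefSeq for S288C (R64), where 4811 of 4817 names matched.

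Library size was the total over rows that never exceeded 50000 reads. The study's methods use a cap of this size, and the reads they impute were not added. NCYC3290 and YPS128 were each fitted alone (6 libraries), and together for their contrast (12 libraries), with edgeR 4.0.16 in R 4.3.3 after filterByExpr with a minimum count of 10. P-values were adjusted by Benjamini-Hochberg over all rows, and the threshold was 0.05. P-values measure the spread between these cultures. The scripts were tested on simulated data. The simulated replicates spread less than those of NCYC3290 at Gen10, so performance at that spread was not tested.

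The members and gene lists were chosen with earlier results of these data known. Genes named were the 10 lowest in BC187, 3 on each side of each threshold, the 5 largest called falls and rises in each strain and in the contrast, up to 6 members of each list with 3 or more, and members of 1 family or complex. Others were named after their values were seen. The alternatives tried were other scalings, DESeq2 1.42.0, filters, a pseudocount, a replicate block, a joint fit and leaving out each library.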

Additional observations from a re-analysis of the deposited data

Results flagged for a closer look

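For 6 members the change in YPS128 differed from that in NCYC3290 by the test of the difference: ILS1 (5.29 on the log2 scale), SPO13 (5.09), ESA1 (4.48), MAD1 (4.26), YDL129W (3.88) and RSC8 (3.87). They were 6.38% of the members, below the 11.0% of 4184 rows called in that direction. Of these 6 calls 0 were kept with TMM, 0 with a replicate block and 3 with DESeq2, and without any 1 Gen0 library 1 was kept, that of SPO13. ILS1 had 2, 0 and 1 reads at Gen10 in NCYC3290. For another 4 every replicate was lower at Gen10 in BC187 and higher in another strain, and these differences between strains were not tested. They were GPP2, with a log2 ratio of 2.08 in NCYC3290, YOR338W with 2.20 there, GEP5 with 0.40 there, and YPR003C with 0.88 in YPS128. All Gen10 values lay above all Gen0 values for 3.79% of eligible rows in NCYC3290 and for 10.4% in YPS128.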

How the results depend on the processing

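The number of members was 94 as reported and 71 to 124 under the 7 other settings, with 85 to 105 when 1 library was left out. Deleterious members in NCYC3290 (29) numbered 89 with all reads as library size, 19 with TMM and 60 in a joint fit of all 24 libraries, and 17 to 51 without 1 library. Beneficial members there (0) numbered 2 with TMM, 12 with DESeq2, 1 in the joint fit and 0 to 2 without 1 library. The members' median in NCYC3290 (-2.22) was -5.97 with all reads, -0.74 with TMM and 0.016 with DESeq2, and ran from -2.89 to -2.19 without 1 library. Minus that of all rows, a value added after seeing the data, it stayed between -0.81 and -0.60. In YPS128 deleterious members (17) numbered 86 with all reads, 40 with DESeq2, 50 in the joint fit and 1 to 70 without 1 library, and beneficial members (0) 2 with TMM, 3 with DESeq2, 2 in the joint fit and 0 to 2 without 1 library. The median there (-1.88) was -4.74 with all reads and ran from -2.55 to -1.63 without 1 library. Minus that of all rows it ran from -1.81 to -1.09. For the contrast, more negative members (0) numbered 1 with TMM, 7 with DESeq2, 2 in the joint fit and 0 to 3 without 1 library, and more positive members (6) 0 with TMM, 3 with DESeq2, 16 in the joint fit and 1 to 14 without 1 library. The cause of these shifts was not tested. Counts of called members under other settings, here and below, are given without the share of all rows called. They describe the dependence on the processing and not a trait of the members.

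Same-numbered libraries did not deviate together, with correlations of deviations from -0.38 to 0.10 over 12 pairs, so the numbers were not taken to pair the samples. With the replicate number as a block there were 89 members, 31 deleterious in NCYC3290 (median -3.43), 39 in YPS128 and 0 with a more positive change in the contrast. Depth limits NCYC3290 most, where the median member had 11 to 41.5 reads in a Gen10 library.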
